A study of Canis lupus familiaris with 33 samples.

Results

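The genes described here are 47 named genes of canine chromosome 19, a chromosome that is often lost in canine invasive urothelial carcinoma (iUC). They were found by gene symbol in the table normalized by the trimmed mean of M values (TMM), which holds 25096 genes. Symbols were found for 43 of the 47, and these 43 are called the members below. FGF2, NUDT6, GYPC and INHBB were found only by their NCBI gene number and are described separately. All 43 members passed the filter on low values. In the RefSeq gene table of another canine assembly (UU_Cfam_GSD_1.0), used only for names and gene order, 42 members were placed on chromosome 19, and CXCR4 was not matched. DNA copy number was not analysed here, so the label of a lost region could be compared only with RNA values.

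RNA was sequenced in 1 batch from 29 tumors and 4 samples of normal bladder mucosa, labelled A to D. The tumors were biopsies taken at cystoscopy from pet dogs with iUC that had not been treated, and the study chose tumors of high epithelial content. The normal samples came from dogs without bladder cancer that were euthanized for other conditions. Nothing in the labels pairs a normal sample with a tumor.

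Chromosome 19 of the dog carries genes whose human counterparts lie on chromosomes 2 and 4. When a tumor loses or gains a whole chromosome, the RNA of many of its genes tends to move with the number of gene copies, although single genes are also set by cell type and regulation. The members do not form a pathway. They include helicases, RNA-processing proteins and transcription factors (ERCC3, EXOSC9, GLI2), signal proteins (MAP3K2, RALB, SPRY1, CXCR4), proteins of the cytoskeleton and cilium (CLASP1, INTU, BBS7), enzymes (KYNU, ACMSD, MGAT5), and the coagulation zymogen PROC. What they share is their place on the chromosome.

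The deposited values are on the log2 scale and were centred by gene, with the gene's median in all 33 samples set to 0. A value of 0 therefore marks the middle sample of a gene, and values cannot be compared in level between genes. Because 29 of 33 samples are tumors, the tumors of every gene lie around 0 by construction. Total counts cannot be read from these values. Between 620 and 884 varying genes lay at their lowest value in a normal sample, against 3564 to 8040 in a tumor. All 5 smooth muscle markers measured were lower in tumors, with a median log2 fold change of -6.13, as were 4 of 5 fibroblast markers (-3.03) and both nerve markers measured (-5.43), and 7 of 9 urothelial markers were higher. The part of this difference in tissue in the changes of the members was not tested. In bulk tissue, fewer cells of a type and less RNA per cell cannot be told apart. The values of tumors 7 and 7_733858 correlated at 0.57 over genes, the highest pair of tumors (next 0.43, median 0.00377), although the study describes 1 tumor per dog. Both were kept as separate samples, and results without 7_733858 are given where they differ.

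Compared with normal mucosa, 11 of 43 members were lower in tumors and 2 were higher. A call required an adjusted p of at most 0.05 (limma, Benjamini-Hochberg over 24471 genes) and a change of at least 2-fold. Of all genes tested, 45.8% were lower and 10.7% higher. Of the 18418 genes whose median lay above the lowest value, as that of every member did, 30.4% were lower and 14.2% higher, and of the 11452 of them placed on the other chromosomes from 1 to 26, 22.2% were lower and 18.1% higher. The share of genes lower ran from 16.2% to 31.5% over these 25 chromosomes and exceeded that of the members, 25.6%, on 6 of them. With the values normalized by DESeq, 12 members were lower and 1 higher, beside 49.1% and 5.62% of all genes. In 4 of 43 members every tumor lay below every normal sample (28.5% of all genes), and in 1 every tumor lay above (7.63%). The plot of member values shows each sample.

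**Figure D1:**
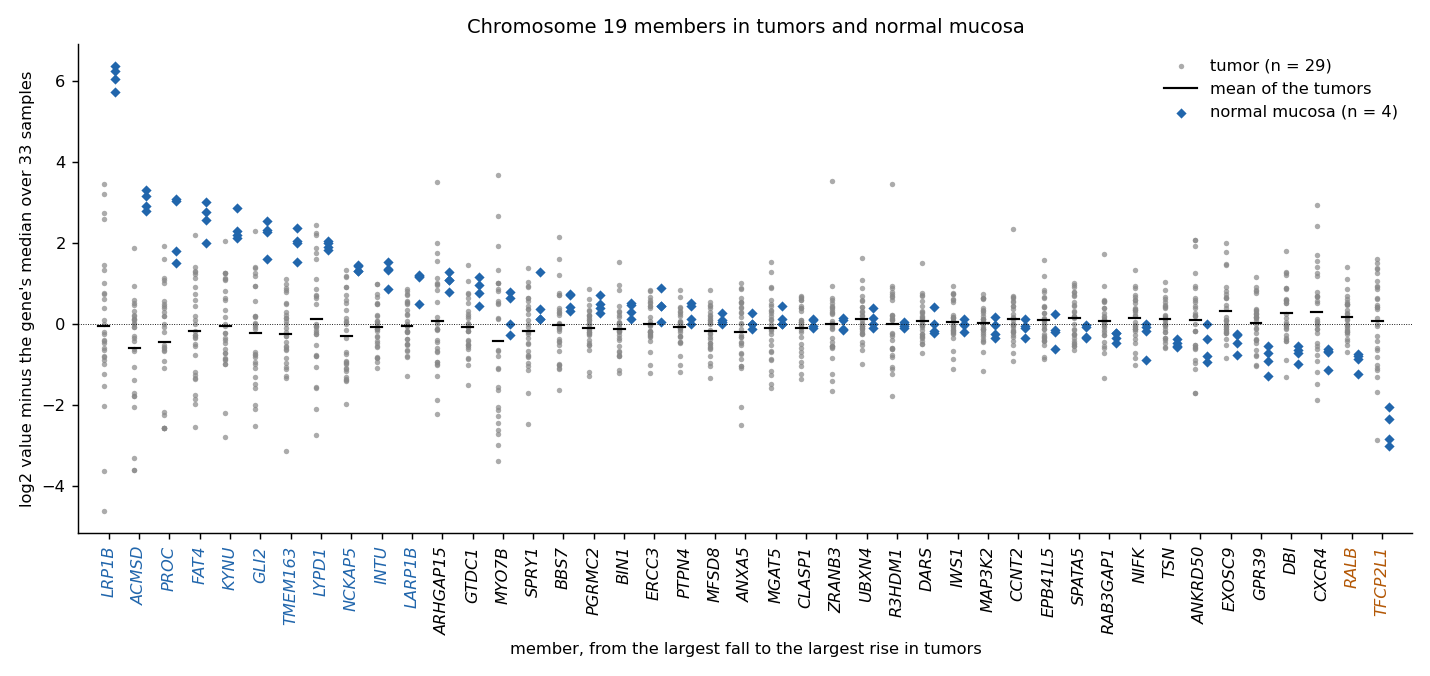
Values of the 43 members in each of 29 tumors (grey points, with the tumor mean as a black bar) and 4 normal samples (blue diamonds), on the log2 scale relative to the median of each gene, ordered by log2 fold change. Names in blue were called lower in tumors and names in orange higher; LRP1B, ACMSD, KYNU and TMEM163 show no overlap on the low side and RALB none on the high side.

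The median log2 fold change of the members was -0.24, beside -0.84 over all genes tested and -0.01 over genes with a median above the lowest value. In the DESeq table these medians were -0.54, -1.11 and -0.29, so that table is shifted as a whole by about the same amount. Taken chromosome by chromosome over the latter genes, chromosome 19 had the lowest median of the 26 numbered chromosomes compared, at -0.35 for 131 genes, next to -0.05 for chromosome 14 and up to 0.78 for chromosome 13. Chromosomes 27 to 38 and X were not compared, because the copy of the table analysed here is cut short and places only 15 genes on them. It kept the lowest place in the DESeq table and without each normal sample in turn. Of these 131 genes 33.6% were called lower and 6.11% higher. Without the members and the 4 genes found by number, 31 of 85 were lower and 5 higher, with a median of -0.40. These medians were not tested.

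The member with the largest fall was LRP1B. LRP1B, a giant endocytic receptor of the low density lipoprotein receptor family, had values of 6.35, 6.05, 6.23 and 5.73 in normals A to D and ran from -4.60 through a median of -0.24 to 3.44 in the tumors. No tumor reached the lowest normal sample, and the log2 fold change was -6.13 ± 0.88 (SE, 69.8-fold lower, adjusted p = 1.82e-07). PROC encodes protein C, the zymogen of an anticoagulant protease. Its normals lay at 3.03, 1.81, 1.5 and 3.07 and its tumors between -2.56 and 1.91 with a median of -0.20, and 5 tumors were at the lowest value of the gene. Of the tumors, 27 lay below all normals (log2 fold change -2.80 ± 0.68, adjusted p = 0.000451).

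Of the 9 members of metabolism, transport and the endoplasmic reticulum, 3 were lower and none higher. ACMSD and KYNU are both enzymes of tryptophan breakdown along the kynurenine pathway. ACMSD had values of 3.16, 2.78, 2.92 and 3.31 in the normals and -3.60 to 1.88 (median -0.08) in the tumors, with 2 tumors at its lowest value. KYNU had values of 2.86, 2.11, 2.19 and 2.28 in the normals and -2.78 to 2.04 (median -0.21) in the tumors. In both genes every tumor lay below every normal sample, with log2 fold changes of -3.64 ± 0.66 (adjusted p = 9.59e-06) and -2.41 ± 0.54 (adjusted p = 0.000169). TMEM163, a zinc transporter, ran from 1.52 to 2.38 in the normals (2.04, 2.00, 1.52 and 2.38) and from -3.13 to 1.11 (median -0.19) in the tumors, again without overlap (-2.22 ± 0.45, adjusted p = 4.59e-05). The other 6 genes, with GTDC1, PGRMC2, MFSD8, MGAT5, UBXN4 and DBI, had log2 fold changes from -0.91 to 0.98. GTDC1 passed both thresholds only in the DESeq table (-1.21). DBI, the acyl-CoA binding protein, was 0.98 ± 0.35 higher (adjusted p = 0.0124), just short of 2-fold, and passed it without normal B (1.01), normal C (1.04), tumor 10 (1.02) or tumor 7_733858 (1.0).

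Of 12 genes of the cytoskeleton, cilium, polarity and membrane traffic, 3 were lower. FAT4, an atypical cadherin of planar cell polarity, had normals of 2.57, 2.76, 2.01 and 3.01 and tumors from -2.54 to 2.20 (median -0.27), with 28 of 29 below all normals (-2.75 ± 0.58, adjusted p = 9.59e-05). INTU, which acts in planar polarity and the building of cilia, had normals of 1.53, 0.87, 1.34 and 1.37 and tumors from -1.09 to 0.99 with a median of -0.11. NCKAP5 had normals of 1.31, 1.45, 1.43 and 1.30 and tumors from -1.97 to 1.34 with a median of -0.33. Only 1 tumor (Za) reached the normal range of NCKAP5, and 2 tumors that of INTU. Their log2 fold changes were -1.35 ± 0.29 (INTU, adjusted p = 0.000107) and -1.67 ± 0.46 (NCKAP5, adjusted p = 0.00193). The other 9 genes lay between -1.0 (ARHGAP15) and 0.63 (ANKRD50), and none had an adjusted p of 0.05 or less. MYO7B, a myosin of the brush border, had the widest spread of this group over the tumors, from -3.38 to 3.66 around normals of -0.27 to 0.80.

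The signal genes moved in both directions, with 2 of 9 lower and 2 higher. GLI2, a transcription factor of hedgehog signalling, had normals of 2.26, 2.31, 1.60 and 2.53 and tumors from -2.51 to 2.29 (median -0.08). LYPD1, an anchored membrane protein of the Ly6 family, had normals of 1.81, 1.89, 2.04 and 1.99 and tumors from -2.72 to 2.44 (median -0.04). In all, 3 tumors lay above all normals of LYPD1, with tumor 10 the highest, and 25 lay below. The log2 fold changes were -2.40 ± 0.58 (GLI2, adjusted p = 0.00048) and -1.80 ± 0.64 (LYPD1, adjusted p = 0.0132).

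TFCP2L1, a transcription factor of the grainyhead-like family, was the member with the largest rise. Its values were -2.04, -2.35, -2.83 and -3.01 in the normals and -2.86 to 1.60 (median 0.37) in the tumors, and 28 of 29 tumors lay above all normals (2.63 ± 0.54, 6.19-fold, adjusted p = 6.33e-05). RALB, a small GTPase that acts downstream of Ras, had normals of -0.86, -0.78, -0.73 and -1.22 and tumors from -0.69 to 1.42 with a median of 0.12. All 29 tumors lay above every normal sample (1.08 ± 0.25, adjusted p = 0.0003), but the change missed 2-fold in the DESeq table (0.78) and without normal D (0.97). GPR39, a zinc-sensing receptor, was 0.89 ± 0.29 higher (adjusted p = 0.00765) without reaching 2-fold, and CXCR4, the receptor of the chemokine CXCL12, was 1.06 ± 0.55 higher with an adjusted p of 0.0807. SPRY1, PTPN4 and MAP3K2 had log2 fold changes of -0.64, -0.35 and 0.14.

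Among the 11 genes of RNA, transcription and genome upkeep, only LARP1B was called. LARP1B, an RNA-binding protein of the La-related family, had values of 0.50, 1.16, 1.19 and 1.21 in the normals and -1.27 to 0.86 (median -0.05) in the tumors (-1.05 ± 0.29, adjusted p = 0.00145), and its change fell just short of 2-fold without normal C (-1.0) or normal D (-0.99). The other 10 lay between -0.46 (ERCC3) and 0.77 (EXOSC9). TSN (0.60 ± 0.22, adjusted p = 0.0138) and EXOSC9 (0.77 ± 0.35, adjusted p = 0.0467) passed the adjusted p without a 2-fold change. The log2 fold changes of ZRANB3 (-0.01), UBXN4 (0.01) and R3HDM1 (0.01) were within their standard errors of 0.27 to 0.48.

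The members were then followed across the 29 tumors, a measure that the comparison with normal mucosa does not use. For each tumor the median difference of the chromosome 19 genes from their tumor medians was set against that of the other chromosomes from 1 to 26. This chromosome-wide shift had an SD of 0.36 over the tumors for chromosome 19, the largest of 26 chromosomes, beside 0.29 for chromosome 13, 0.24 for chromosome 16 and a median of 0.15 over chromosomes other than 19. With the members left out the SD was 0.35, and in the DESeq table it was 0.35. Without tumors Mis and 10 it fell to 0.28 and chromosome 13 ranked first at 0.30.

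**Figure D2:**
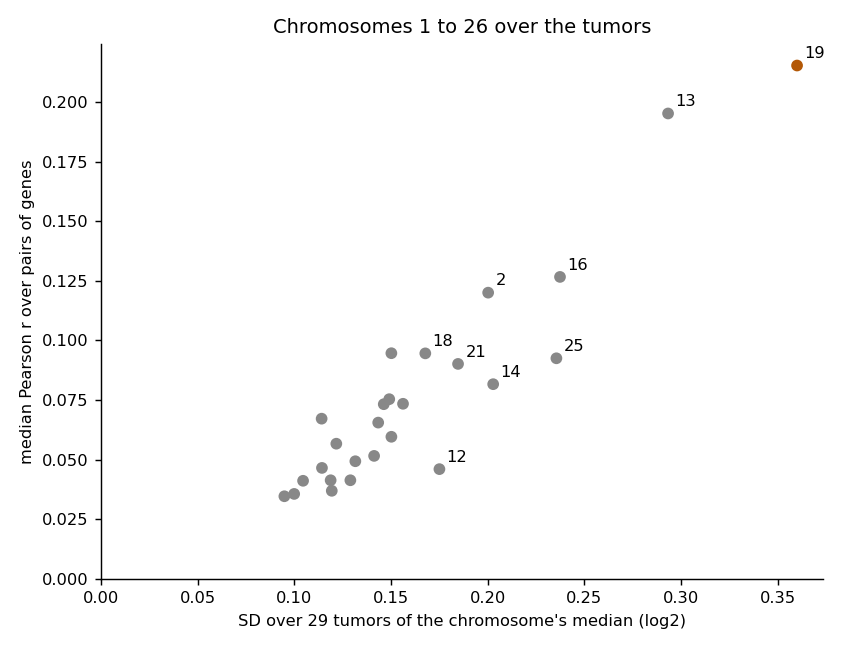
Each point is 1 of chromosomes 1 to 26, with the SD over 29 tumors of its median shift against all other chromosomes on the horizontal axis (log2) and the median Pearson correlation over pairs of its genes on the vertical axis. Chromosome 19, in orange, lies highest on both axes, at 0.36 and 0.22, followed by chromosome 13 at 0.29 and 0.20.

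Pairs of members were mostly positively correlated. Over the 903 pairs of members the median Pearson r over the tumors was 0.24, with 80.4% of pairs positive. A member and 1 of the 85 other chromosome 19 genes had a median r of 0.22, whereas a member and a gene of another of the 26 chromosomes had 0.0129, with 52.2% of pairs positive. Within single chromosomes the median ran from 0.0346 (chromosome 24) to 0.22 (chromosome 19), with 0.20 for chromosome 13. The points share the 29 tumors and their normalization, and these values were not tested. Leaving out 1 tumor at a time moved the median of the members between 0.18 and 0.31, the highest being without tumor 10.

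Neighbours here are the 41 pairs of members with no other member between them in gene order. Genes that are not members can lie between them, as between ANXA5 and MYO7B (places 48 and 64). Neighbours had a median r of 0.45 against 0.23 for the other 862 pairs. Without tumor 10 these medians were 0.42 and 0.31. The closest pairs were IWS1 and ERCC3 (r = 0.94), which lie 3 places apart in the order, RAB3GAP1 and UBXN4 (0.93), and IWS1 and MAP3K2 (0.87), none of which are next to each other. The closest neighbours were ZRANB3 and R3HDM1 (0.87). IWS1 acts in transcription elongation, ERCC3 is the XPB helicase of the transcription factor TFIIH, and RAB3GAP1 regulates Rab proteins of membrane traffic. Some neighbours did not follow each other, such as FAT4 and ANKRD50 (-0.16) and GLI2 and RALB (-0.09).

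The tumors formed a gradual range. The median difference of the members from their tumor medians, set against the other chromosomes, ran from -1.0 in tumor Mis, -0.77 in tumor 10 and -0.60 in tumor CH to 0.52 in tumor Ab, 0.60 in tumor 2 and 0.61 in tumor 19. In tumor Mis 39 of 43 members lay below their tumor median, 33 of them by 0.5 or more, and in tumor CH 39 and 29. In tumor JE only 3 of 43 lay below it, and in tumor 2 only 5. The same medians of the 85 other genes of the chromosome ran from -0.94 in tumor Mis to 0.66 in tumor JE and followed those of the members (r = 0.96, rho = 0.94, and r = 0.93 without tumors Mis and 10). The number of genes at the lowest value was 7088 in tumor Mis, 6326 in tumor 10 and 6542 in tumor 19, against a median of 6741 over the tumors.

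**Figure D3:**
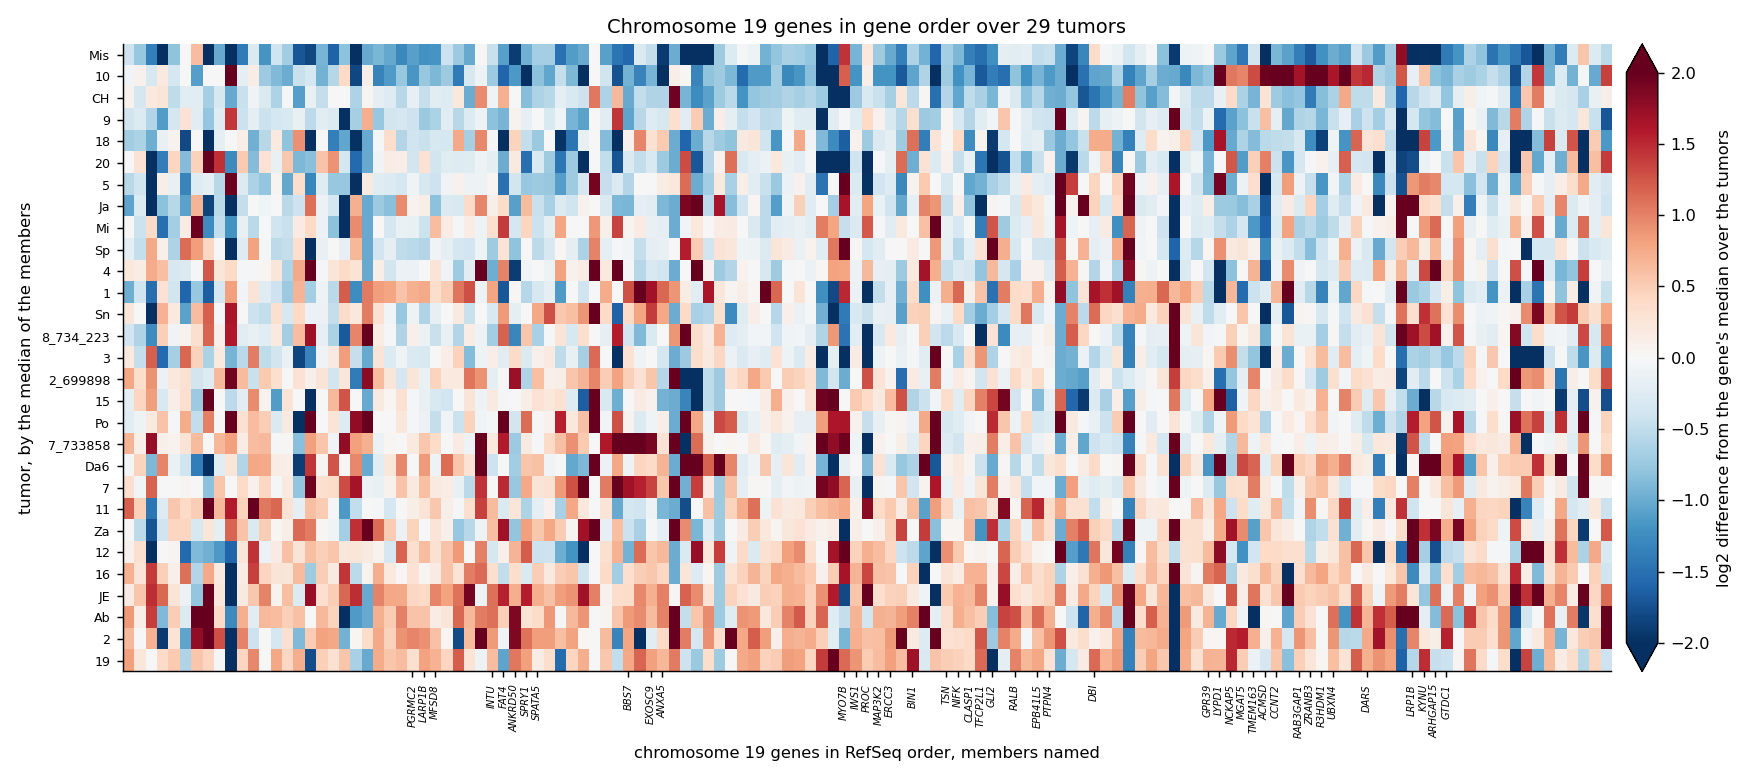
The 131 chromosome 19 genes whose median lay above the lowest value, in RefSeq gene order with the members named, in rows of 29 tumors sorted by the median of the members; color gives the log2 difference from the tumor median of each gene and saturates at 2 in both directions. Tumors Mis and CH are below the median over most of the chromosome, tumors 2 and 19 above it, and tumor 10 is low except for 1 block of high genes.

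Each member was tested against a score of the other genes of its chromosome, built from none of the members. The score was the mean z value of the 85 other chromosome 19 genes minus that of 11460 genes on other numbered chromosomes (all but 8 of them on chromosomes 1 to 26), and it ran from -1.12 (tumor Mis) to 0.74 (tumor JE). The test left out the 85 genes and those that did not vary over the tumors. Of the 24004 genes tested, 20 rose with the score at an adjusted p of at most 0.05 (limma), which is 0.0833%, and 13 of these were members. NUDT6 was another of the 20. No member fell with it. Over all 43 members the median r was 0.49 and 42 had a positive r, the exception being LYPD1 (-0.03). The r of the 13 ran from 0.68 (GTDC1) to 0.85 (PGRMC2), their rho from 0.61 to 0.85, and their permutation p from 1e-05, the smallest that 100000 permutations can give, to 0.00063. Without tumors Mis and 10, the tumors farthest from the median score, their r ran from 0.51 (ANXA5) to 0.83 (PTPN4), and only MAP3K2, CLASP1 and PTPN4 of the 13 passed the adjusted p, with CCNT2, RAB3GAP1 and UBXN4 in addition.

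The 5 genes of the 13 in RNA, transcription and genome upkeep were LARP1B, ERCC3, IWS1, SPATA5 and NIFK. ERCC3 had values of 0.44, 0.44, 0.89 and 0.06 in the normals and ran from -1.20 in tumor 10 to 0.84 in tumor 2, with a median of -0.01. IWS1 had normals of -0.20, 0.00, 0.11 and -0.02 and ran from -1.12 in tumor 10 to 0.94 in tumor 19 (median 0.06). The normals of both lay inside the tumor range or just above it. Per SD of the score ERCC3 rose by 0.41 ± 0.06 and IWS1 by 0.40 ± 0.06 (SE, adjusted p = 0.000365 for both). SPATA5, an ATPase of ribosome maturation, had normals of -0.07, -0.03, -0.33 and -0.35 and tumors from -0.64 to 1.01 (median 0.18). NIFK, a nucleolar partner of the Ki-67 protein, had normals of -0.07, 0.00, -0.17 and -0.88 and tumors from -1.02 to 1.34 (median 0.19). Their slopes were 0.37 ± 0.07 (adjusted p = 0.0176) and 0.37 ± 0.08 (adjusted p = 0.0405), and that of LARP1B was 0.44 ± 0.07 (adjusted p = 0.00129).

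The signal genes among the 13 were MAP3K2, PTPN4 and SPRY1. MAP3K2, a kinase at the top of a MAP kinase cascade, had normals of -0.34, 0.17, -0.03 and -0.24 and ran from -1.17 in tumor 10 to 0.74 in tumor Ab (median 0.03). PTPN4, a protein tyrosine phosphatase, had normals of 0.00, 0.46, 0.51 and 0.13 and ran from -1.17 in tumor 10 to 0.84 in tumor 2 (median -0.04). Both had narrow spreads over the tumors, with SDs of 0.43 and 0.45, and slopes of 0.36 ± 0.05 (adjusted p = 0.000365) and 0.37 ± 0.05 (adjusted p = 0.000581). SPRY1, an inhibitor of receptor tyrosine kinase signalling, had normals of 0.13, 0.38, 0.13 and 1.27 and tumors from -2.47 in tumor 10 to 1.39 in tumor JE (median -0.19), with a slope of 0.60 ± 0.12 (adjusted p = 0.0262).

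CLASP1 and ANXA5 were the genes of the cytoskeleton and membranes. CLASP1, which stabilises microtubule ends, had normals of -0.10, 0.13, 0.11 and -0.06 and ran from -1.37 in tumor Mis to 0.69 in tumor 16 (median 0.00, slope 0.48 ± 0.07, adjusted p = 0.000365). ANXA5, the calcium-dependent phospholipid binder annexin A5, had normals of 0.00, -0.12, 0.01 and 0.26 and ran from -2.48 in tumor 10 to 1.02 in tumor 1 (median -0.13, slope 0.59 ± 0.11, adjusted p = 0.0246). The enzymes and transporters were PGRMC2, MFSD8 and GTDC1. PGRMC2, a heme-binding membrane protein, had normals of 0.28, 0.50, 0.72 and 0.39, and 24 of 29 tumors lay below all of them, from -1.27 in tumor 10 to 0.87 in tumor 2 (median -0.10). MFSD8, a transporter of the lysosomal membrane, had normals of 0.00, 0.06, 0.26 and 0.09 and tumors from -1.33 in tumor Mis to 0.84 in tumor JE (median -0.15). GTDC1 had normals of 0.44, 0.78, 0.96 and 1.16 and tumors from -1.50 in tumor Mis to 1.46 in tumor 2 (median -0.08). Their slopes were 0.40 ± 0.05, 0.41 ± 0.06 and 0.44 ± 0.09, with adjusted p of 0.000365, 0.0017 and 0.0489. The call of GTDC1 was lost without tumor 7_733858 (adjusted p = 0.074) and in the DESeq table (0.0648), where that of NIFK was lost too (0.0546). The lowest tumor was tumor 10 in 9 of the 13 genes and tumor Mis in the other 4.

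**Figure D4:**
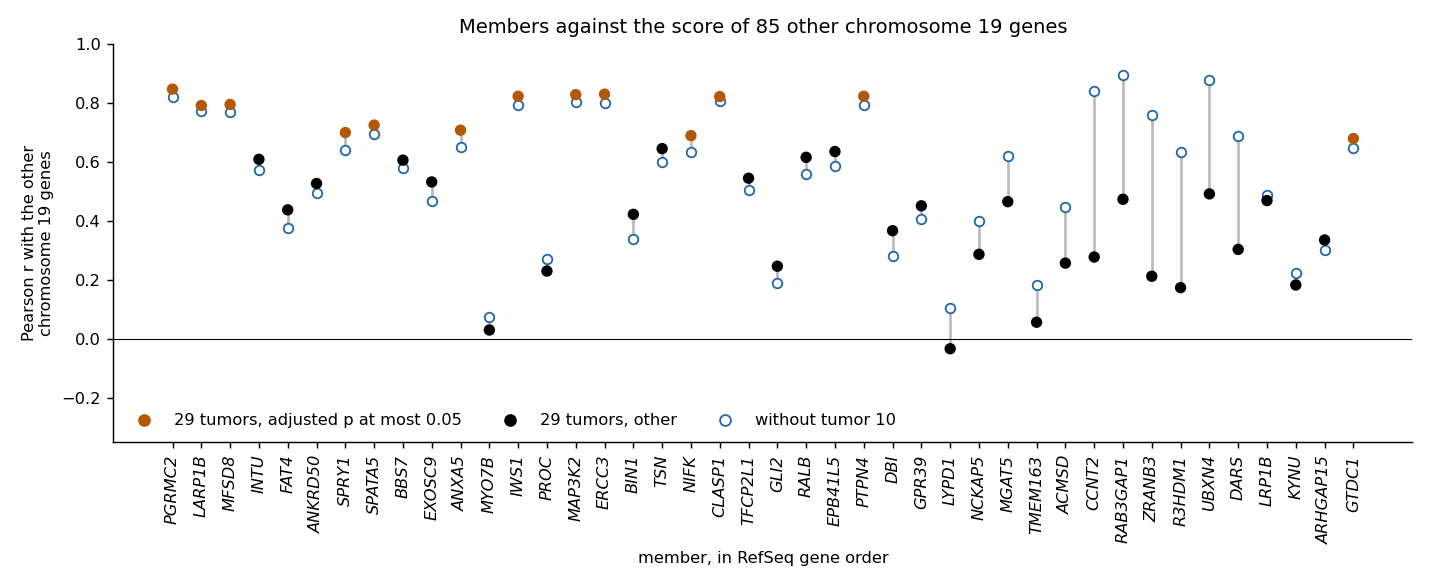
Pearson r over the tumors between each of 42 members, in gene order, and the score of 85 other chromosome 19 genes, with all 29 tumors (filled points, orange where the adjusted p was at most 0.05) and without tumor 10 (open points). For the 6 members from CCNT2 to DARS the open points lie between 0.63 and 0.90 and the filled ones between 0.17 and 0.49, and for the other members the points lie at most 0.19 apart.

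Tumor 10 was low along the chromosome but had a block of raised genes in it. The median of the 120 chromosome 19 genes outside the block was -0.86 against their tumor medians, with 101 of them below 0. From TMEM163 to DARS, 11 consecutive genes with a median above the lowest value were each raised by 1 or more, with a median of 1.96. Members make up 8 of the 11. CCNT2, a cyclin that activates transcription elongation, was raised by 2.33, RAB3GAP1 by 1.67, and ZRANB3, which remodels stalled replication forks, by 3.51. R3HDM1 was raised by 3.35, UBXN4, a factor of protein degradation at the endoplasmic reticulum, by 1.63, and DARS, the aspartyl-tRNA synthetase, by 1.5. TMEM163 and ACMSD were raised by 1.30 and 1.96. All 8 had their highest value of the 29 tumors in tumor 10.

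The 3 other genes of the block, named after their values were seen, were MAP3K19 (7.19), LCT (3.07) and MCM6 (1.42). On its near side MGAT5 (0.97), NCKAP5 (1.05) and LYPD1 (2.49) were also raised, and GPR39, the next member, was at -0.78. On the far side HNMT was at -0.60. The other 34 placed members had a median of -0.93 in tumor 10. Over all 26 chromosomes and 29 tumors there were 67 such runs of 6 or more genes raised by 1 or more, in 22 tumors and on 17 chromosomes, and this was the only one on chromosome 19. No run of 6 or more genes lowered by 1 or more lay on chromosome 19, and 31 lay elsewhere. The median of the same 11 genes in the other tumors ran from -1.07 to 0.60.

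With tumor 10 left out, 4 of the 8 members of the block passed the test against the rest of the chromosome. The block was picked for its high values in tumor 10, where the score was low (-0.83). A rise of r without that tumor was therefore largely fixed in advance. Without tumor 10 the r with the score went from 0.47 to 0.90 for RAB3GAP1, from 0.49 to 0.88 for UBXN4, from 0.28 to 0.84 for CCNT2, and from 0.21 to 0.76 for ZRANB3. All 4 then passed the adjusted p, with 12 members in all, of which 8 were among the 13. The other 4 members of the block did not pass it, with an r of 0.69 for DARS (adjusted p = 0.113), 0.63 for R3HDM1 (0.225), 0.45 for ACMSD (0.6) and 0.18 for TMEM163 (0.949). SPRY1, SPATA5, ANXA5, NIFK and GTDC1 no longer passed it. Leaving out 1 tumor at a time gave counts from 9 to 13. The log2 fold changes of R3HDM1 and UBXN4 against normal mucosa, within their standard errors of 0, changed sign without tumor 10.

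**Figure D5:**
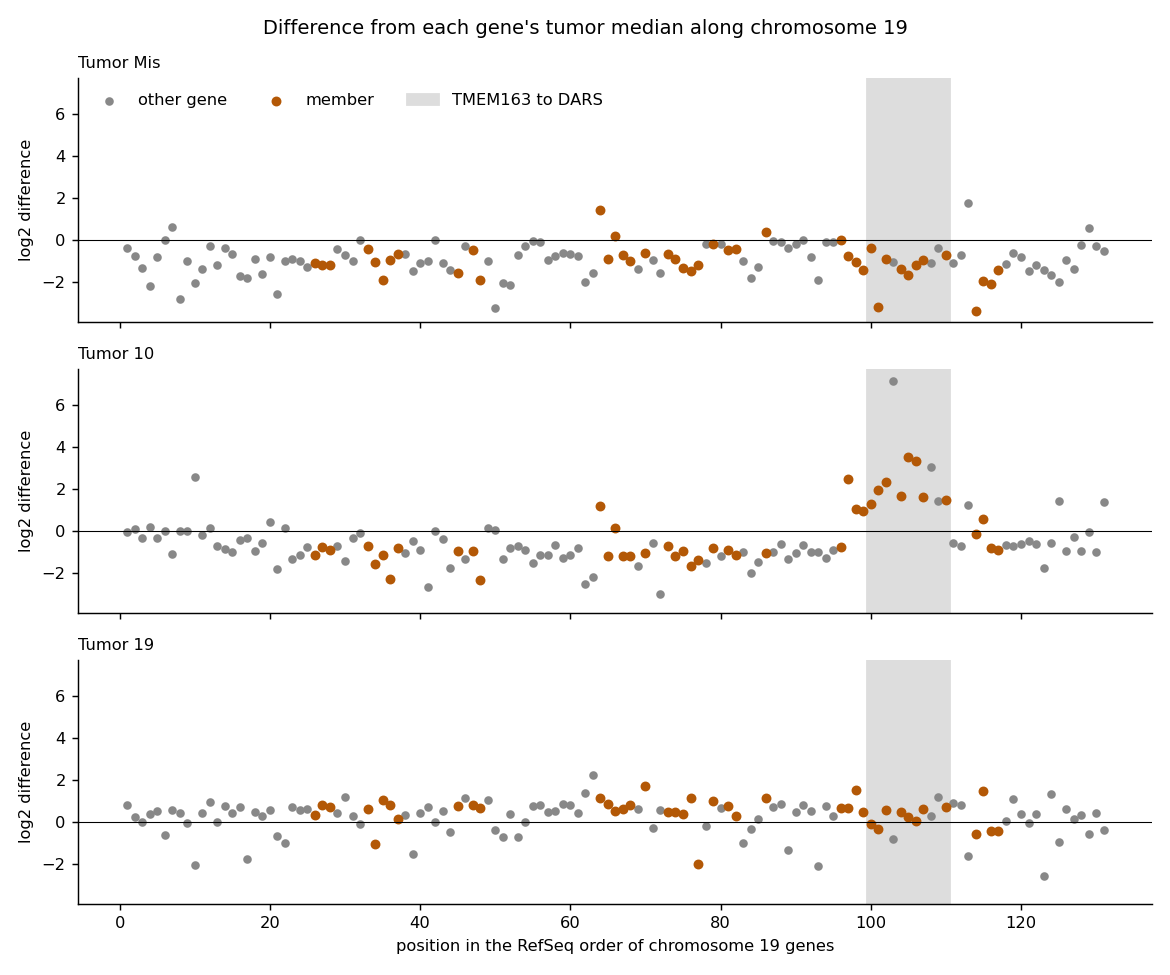
The log2 difference from the tumor median of each gene along chromosome 19, in gene order, for tumors Mis (lowest median of the members), 10 and 19 (highest), with members in orange, other genes in grey and the stretch from TMEM163 to DARS shaded. In tumor 10 the shaded genes lie at 1.30 or more while the median outside is -0.86; in tumors Mis and 19 the stretch does not stand apart.

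BBS7 and EXOSC9 had a local pattern of their own. BBS7, a subunit of the BBSome of the primary cilium, and EXOSC9, a subunit of the RNA exosome, lie on either side of CCNA2. Against their tumor medians they were raised by 1.68 and 1.36 in tumor 7, by 2.22 and 1.90 in tumor 7_733858, and by 1.27 and 1.69 in tumor 1. CCNA2, the cyclin A2 gene of the cell cycle, was raised by 1.55, 2.28 and 1.99 in the same tumors and lay 2.75 ± 0.50 higher in tumors than in normals (adjusted p = 1.13e-05). The r of BBS7 and EXOSC9 with each other was 0.80. Tumors 7 and 7_733858 may not be independent, as their correlation above shows, and their medians over all members were 0.19 and 0.10. Tumor 1 was mixed along the chromosome, with 14 members 0.5 or more above and 12 as far below their tumor medians.

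Several members moved with markers of other cell types over the tumors. ARHGAP15, a regulator of Rac GTPases found in blood cells, had an r of 0.96 with the mean z of 9 leukocyte markers over the tumors (adjusted p = 2.09e-12), CXCR4 0.79 (2.28e-05) and KYNU 0.68 (0.00194), beside 3.04% of all genes that rose with it. Their r with the chromosome 19 score were 0.34, 0.30 and 0.18, and none passed. With 5 fibroblast markers FAT4 had an r of 0.85 (adjusted p = 1.29e-06), GLI2 0.68 (0.00323) and SPRY1 0.60 (0.0264), beside 2.19% of all genes. With 5 endothelial markers 5 members rose, FAT4 (r = 0.77), SPRY1 (0.72), CLASP1 (0.57), LRP1B (0.55) and ARHGAP15 (0.54), beside 2.92% of all genes. SPRY1 and CLASP1 are also among the 13 that followed the chromosome 19 score, and the others are not.

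The chromosome 19 score itself moved with the endothelial markers (r = 0.57, permutation p = 0.00108, adjusted over 7 marker lists 0.00756; rho = 0.51, adjusted p = 0.0384; r = 0.49 without tumors Mis and 10). None of these 5 markers was called between tumors and normals. The r with the other 6 lists lay between -0.31 (urothelial) and 0.38 (fibroblast), with adjusted p of 0.15 or more. With the endothelial score as a covariate 11 members followed the chromosome, 9 of them among the 13, and SPRY1, SPATA5, ANXA5 and GTDC1 did not. With leukocyte and smooth muscle scores as covariates 12 members did, 9 of them among the 13, and the same 4 did not. ANKRD50 and RALB passed under both sets of covariates and TSN under the second. The part of vessel content in the score was not tested further.

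Of the 4 genes found by NCBI gene number, 2 were lower in tumors and 1 higher. FGF2, a growth factor, had values of 1.26, 1.67, 1.10 and 1.82 in the normals and -2.08 to 1.43 (median -0.12) in the tumors and was lower (-1.71 ± 0.44, adjusted p = 0.000824). GYPC, the erythrocyte membrane protein glycophorin C, had normals of 2.06, 2.58, 1.96 and 2.49 and tumors from -2.18 to 2.75 (-2.28 ± 0.53, adjusted p = 0.000301). INHBB, the beta B subunit of inhibins and activins, had normals of -1.46, -0.93, -1.34 and -1.19 and tumors from -1.66 to 1.99 and was higher (1.5 ± 0.47, adjusted p = 0.00558). All 3 calls held in the DESeq table. Over the tumors GYPC rose with the leukocyte markers (r = 0.61, adjusted p = 0.0137), and FGF2 with the fibroblast (r = 0.65, adjusted p = 0.00843) and endothelial markers (r = 0.68, adjusted p = 0.00324). NUDT6, whose gene overlaps FGF2 on the opposite strand, had normals of 0.33, 0.63, 0.087 and 0.39 and tumors from -1.14 to 1.2. It did not pass against normals (-0.45 ± 0.28, adjusted p = 0.152) but followed the chromosome 19 score (r = 0.69, adjusted p = 0.048), a call that was lost without tumor 7_733858 (adjusted p = 0.074) or tumor 10 (0.225), without tumors Mis and 10 (0.512), and with either set of covariates (0.194 with the endothelial score, 0.148 with the leukocyte and smooth muscle scores). The strand used in counting is not given in the sources used here, so reads of NUDT6 and FGF2 cannot be told apart where they overlap.

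Among the other named genes of the chromosome that were called in both tables, the largest falls were in CLGN (-6.58 ± 0.80), IL21 (-6.55 ± 0.71) and ADAD1 (-6.23 ± 0.44), and the largest rises in CCNA2, MCM6 (1.53 ± 0.31) and STEAP3 (1.51 ± 0.39). The medians of IL21 and ADAD1 lay at their lowest value, and CLGN was at its own in several tumors, among them Mis and JE. The size and order of these falls are therefore limited by the lowest value. MCM6, a subunit of the replicative helicase, lies within the block raised in tumor 10, between members UBXN4 and DARS.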

How the data were processed

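RNA from 29 canine iUC tumors and 4 normal bladder mucosa samples was sequenced as paired-end 150 bp reads. The authors aligned the reads to CanFam 3.1 (named in the submitters' processing notes) with COBWeb in Strand NGS, counted reads over annotated genes, made a TMM and a DESeq normalization, and deposited log2 values from which each gene's median over the 33 samples was subtracted. The centring was read from the values (every median 0 within 1e-06). Count tests were therefore not used, total counts are unknown, and the precision of low values is limited by 1 read pair. The copies analysed here are cut short. Each ends within a line, which was left out, and the TMM table holds few genes of chromosomes 27 to 38 and X.

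Genes above their shared lowest value in at least 4 samples were tested in R 4.3.3 by limma 3.58.1 with a trend of the variance on the mean and Benjamini-Hochberg adjustment, which was checked on simulated data. A call required an adjusted p of at most 0.05 and, between tumors and normals, at least a 2-fold change. For the tumors, the chromosome 19 score was standardised and used as the predictor, and r and rho had two-sided permutation p (100000 resamples). "Median above the lowest value" refers to the gene's median over all samples. A run was 6 or more consecutive such genes, each at least 1 from its tumor median. Chromosomes and gene order came from RefSeq names (UU_Cfam_GSD_1.0) without coordinates. Python 3.11.15, numpy 2.4.6, pandas 2.3.3, scipy 1.17.1 and matplotlib 3.10.9 were used.

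Every member was accounted for by role. Sample values were given for members called in both tables or following the score and for RALB, which was called only in the TMM table and was chosen after its values were seen, and other genes were named only as markers, opposite-strand partners or the 3 largest falls and rises on chromosome 19 called in both tables, apart from genes of and next to the run in tumor 10 and beside BBS7, which were chosen after their values were seen. The members and lists were chosen with earlier results of these data known. Replicates are separate dogs as the study describes them. Alternatives were the second table of the authors (DESeq normalization), other filters, weights, centring, covariates, ranks and left-out samples. Single tumors left out, the endothelial covariate and alternatives for the spread of the chromosome were chosen after seeing the data.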

Additional observations from a re-analysis of the deposited data

Results flagged for a closer look

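Among the 43 members, the 4 normal samples held an isolated sample in 2. In LARP1B normal A lay at 0.50 while the other normals lay between 1.16 and 1.21, and without normal A the log2 fold change was -1.22 in place of -1.05. In CXCR4 normal C lay at -1.14 while the others lay between -0.69 and -0.61, and without it the log2 fold change was 0.94 in place of 1.06. Chance alone sets apart about 1 in 20 such groups.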

How the results depend on the processing

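Of the members called in tumors against normals, 10 to 12 were lower under every alternative except the adjusted p alone (13), and 2 were higher except in the DESeq table (1), with the adjusted p alone (6), and with single samples left out (1 to 3); the count of 1 came without normal D. Members following the chromosome 19 score numbered 11 to 19 under the other alternatives, 9 to 13 with 1 tumor left out, and 6 without the 2 farthest tumors, where fewer samples were used. The median log2 fold change was -0.54 in the DESeq table, which is shifted as a whole, and -0.29 to -0.22 with 1 normal left out. The median pairwise r ran from 0.18 to 0.31 with 1 tumor left out. The lowest tumor score of the members (tumor Mis) was -1.33, and -1.38 without subtracting the other chromosomes. Direction changed only in members near 0, none past an adjusted p of 0.05 in either setting. In the DESeq table these were IWS1 (-0.21), MAP3K2 (-0.16), EPB41L5 (-0.016), CCNT2 (-0.10), R3HDM1 (-0.28), UBXN4 (-0.29) and DARS (-0.22). With a sample left out, ZRANB3 ran from -0.14 (without tumor 10) to 0.040 (without normal D, and 0.021 without normal C), R3HDM1 from -0.11 (without tumor 10, and -0.014 without normal B) to 0.043, and UBXN4 from -0.065 (without normal D, and -0.045 without tumor 10 and -0.029 without normal A) to 0.10. The cause was not tested. Of the 43 members, 27 kept their direction and call in all 13 alternatives run on single members. No paired analysis was possible because the normals and tumors share no replicate numbers. With 4 normals, and depth unknown, small differences from normal mucosa could not be resolved.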
